A study of Mus musculus with 16 samples.

Results

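The transcripts of 9 genes for histone variants other than H3.3 were followed in mouse liver with and without the H3.3 chaperone HIRA, before and after regeneration. They were the genes of the H2A.Z pair (H2afz and H2afv), H2A.X (H2afx), the macroH2A pair (H2afy and H2afy2), H2A.J (H2afj), the linker histones H1.0 and H1X (H1f0 and H1fx) and the centromeric H3 variant CENP-A (Cenpa). These 9 of the 55421 gene rows of the deposited count table were taken by their gene names. All 9 had at least 10 reads over the 16 libraries and so were among the 23018 genes tested. Cenpa, H2afz and H2afx rose in control liver after regeneration, Cenpa also rose in HIRA KO liver, and none of the 9 was called between HIRA KO and control at either time.

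The libraries came from livers of male C57BL/6 mice in 4 groups of 4, each with 2 libraries of each deletion approach. HIRA KO was made with AAV8 Tbg-Cre in HIRAfl/fl mice or with AAV8 carrying saCAS9 under the Tbg promoter and a U6-driven sgRNA against HIRA in wildtype mice. The controls were wildtype mice that received AAV8 Tbg-Cre, or the CRISPR vector with an sgRNA against Rosa26. Every mouse of the series thus carried an AAV8 vector, given at an age of 6 months. The Tbg promoter is active in hepatocytes, so other cells of the liver kept Hira. Partial hepatectomy followed 4 weeks after the virus, and the resected left lateral and median lobes were the tissue before regeneration. What had regrown was taken 5 days later from mice euthanized with carbon dioxide. Time, lobe and manner of collection therefore changed together and cannot be told apart. The table columns give the genotype, the time and a number from 1 to 4, but neither the approach nor the mouse. The libraries are called by that number here, and p-values measure only the spread between them.

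Most nucleosomes are built from histones made during DNA replication, whose genes are clustered and whose mRNAs end in a stem-loop without a poly(A) tail. The variants followed here are encoded elsewhere, mostly as polyadenylated mRNAs, and many of them can be placed into chromatin outside of S phase. Poly(A) RNA was sequenced, so any of their transcripts without a poly(A) tail would be largely missed. H2A.Z marks start sites and enhancers, H2A.X carries the phosphorylation that marks DNA breaks, macroH2A is found in repressed chromatin, and H1 variants bind linker DNA. CENP-A replaces H3 at centromeres, where it is the base of the kinetochore. In resting adult liver few hepatocytes divide, and resection makes many of them enter the cell cycle.

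Library depth ran from 15103059 to 21738619 counts. Before regeneration Hira had 5.77 ± 0.448 CPM (counts scaled to library size, mean ± SD, n = 4) in control against 3.54 ± 0.571 in HIRA KO. After regeneration it had 5.67 ± 0.554 and 3.51 ± 0.707 CPM. No HIRA KO library overlapped a control library of the same time, although the fall was not called (edgeR adjusted p = 0.130 before and 0.0666 after). Hepatocyte markers summed to between 104500 and 162300 CPM in every library. On the second principal component, which held 26.5% of the variance, HIRA KO libraries 1 and 2 lay between -47.4 and -36.2 at both times, while the other 12 libraries lay between -1.14 and 31.2. Many differences of the variants are therefore also given without those 4 libraries. Each HIRA KO group then held only its libraries 3 and 4. Summed markers of stellate cells and matrix reached 610.5 and 413 CPM in HIRA KO before libraries 1 and 2, against 193 to 226 in the other 6 libraries before regeneration. Cholangiocyte markers summed to 149 and 98.3 CPM there and to between 48.4 and 74.4 in the others. No gene of the 7 cell type marker lists was called between HIRA KO and control at either time. Of all genes tested, 0.0391% were called before regeneration and 0.491% after it. In whole tissue, fewer cells of a type and less RNA per cell cannot be told apart.

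Whether hepatocyte HIRA affects these transcripts was asked first. Before regeneration 0 of the 9 genes were called between HIRA KO and control, where 0.0391% of all genes tested were, at a Benjamini-Hochberg adjusted p under 0.05. The 4 HIRA KO libraries overlapped the 4 control libraries for all 9, and groups did not overlap for 8.07% of all genes. One gene, H1fx, had an unadjusted p under 0.05. After regeneration 0 of the 9 were called, beside 0.491% of all genes, 0 had groups without overlap, beside 8.1%, and H2afx and H2afj had an unadjusted p under 0.05. DESeq2 also called 0 of the 9 at either time. How far the HIRA KO effect changed from before to after was called for 0 of the 9 by edgeR and by DESeq2, beside 0% of all genes by edgeR, and H2afj had an unadjusted p under 0.05.

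**Figure D1:**
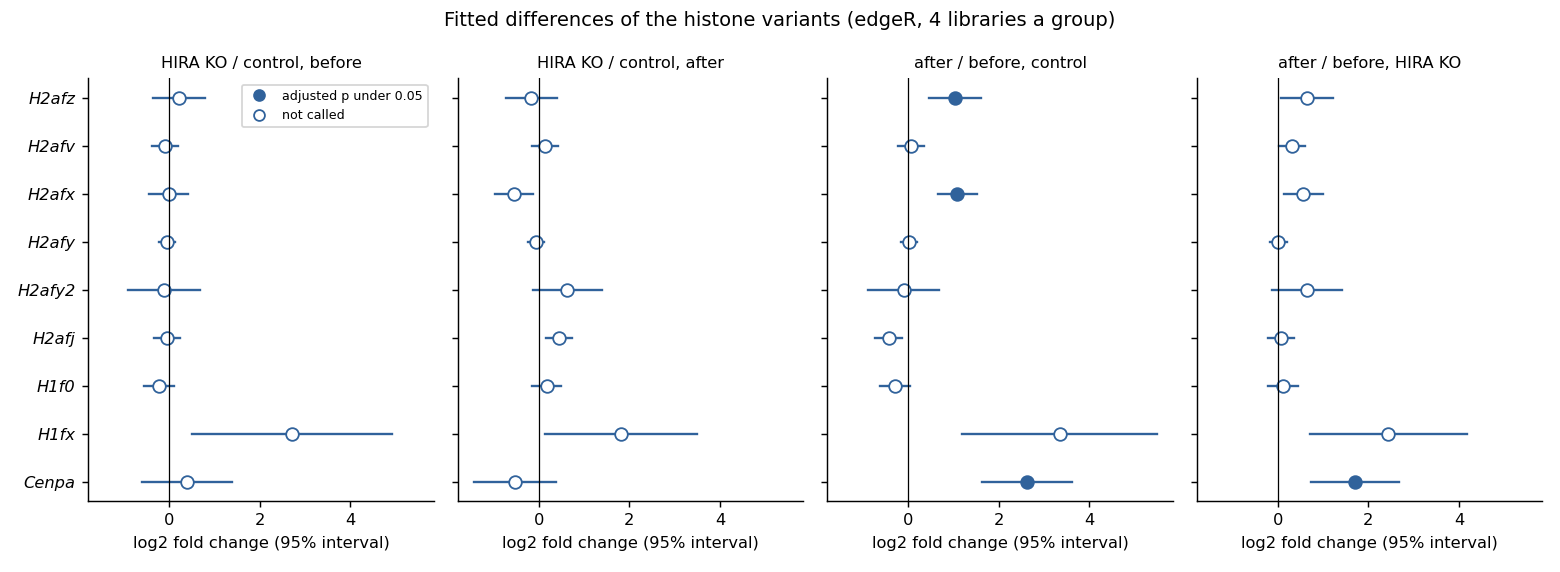
Fitted log2 fold changes (x axis, with 95% intervals) of the 9 variant genes (rows) in 4 comparisons of 4 against 4 libraries; filled points passed an edgeR adjusted p of 0.05. The filled points are H2afz, H2afx and Cenpa in control and Cenpa in HIRA KO after against before regeneration, and no point is filled in either comparison of HIRA KO with control.

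Regeneration was compared next. In control liver 3 of the 9 genes rose and 0 fell, where 10.2% of all genes were called in either direction. Groups did not overlap for 3 of the 9, beside 19% of all genes. These were Cenpa and, without a call, H1fx and H2afj, of which H2afj was lower after regeneration. In HIRA KO liver 1 of the 9 rose, beside 12% of all genes called, and 2 of the 9 had groups without overlap, beside 16.1%. Without the 4 HIRA KO libraries that stood apart, 4 of the 9 were called in control (H2afx, H2afj, H1fx and Cenpa). In HIRA KO, where only libraries 3 and 4 then remained at each time, 2 were called (H2afv and H1fx). Of the 21500 genes tested without those libraries, 3858 were called in control and 2225 in HIRA KO. The control libraries are the same in both fits, so the calls in control differ through the genes tested, the scaling and the spread estimated over all libraries.

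**Figure D2:**
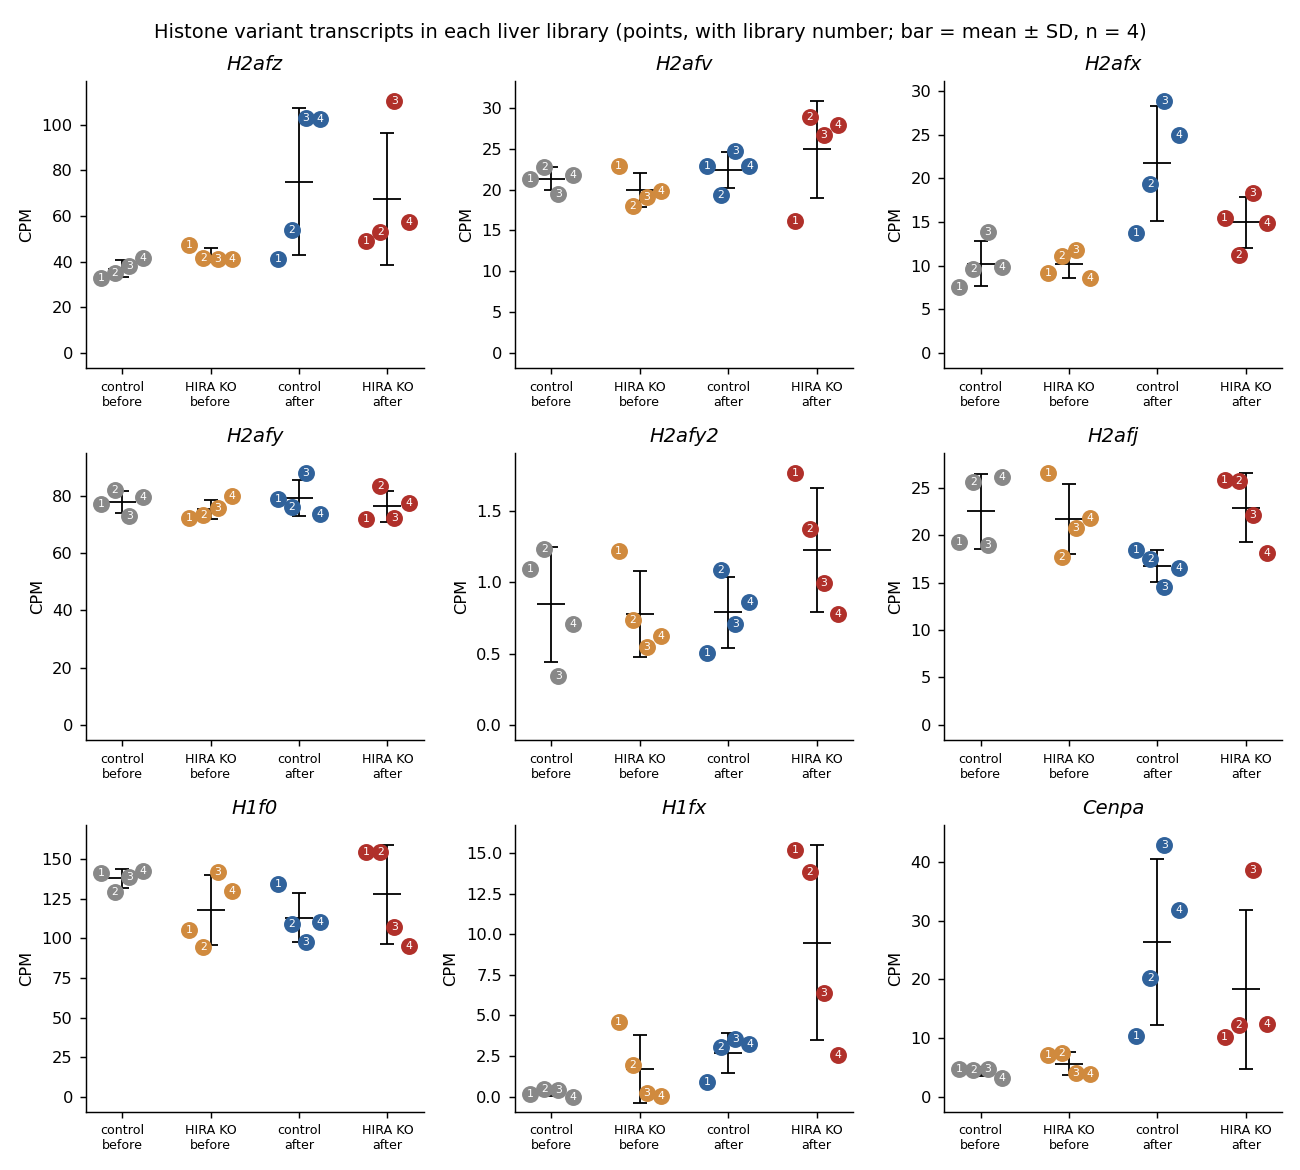
CPM (y axis) of each variant gene in every library, with the library number in the point and the mean ± SD of each group of 4 as a bar. Libraries 3 and 4 of control after and library 3 of HIRA KO after are the highest for H2afz, while H2afy is level over all groups and H1fx is highest in HIRA KO after libraries 1 and 2.

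H2afz and H2afv encode the H2A.Z proteins, which the SRCAP and TIP60/p400 complexes exchange for H2A. H2afz lies on the plus strand at chr3:137864487-137866922 and H2afv on the minus strand at chr11:6427229-6444443 (GRCm38). H2afz had 32.8, 35.1, 38.1 and 41.4 CPM in control before libraries 1 to 4 and 41.2, 53.9, 103 and 102 in control after. The fitted increase was 1.03 ± 0.292 (log2, SE; edgeR adjusted p = 0.0363), or 2.04-fold in mean CPM, although control after library 1 overlapped the controls before. In HIRA KO it had 47.5, 41.4, 41.2 and 41.3 CPM before and 48.9, 52.9, 110.3 and 57.5 after. Within HIRA KO no library before regeneration reached those after it, but the difference of 0.65 ± 0.290 was not called (edgeR adjusted p = 0.16). The call in control was lost when any control before library or control after library 3 or 4 was left out, with edgeR adjusted p between 0.0706 and 0.131, and also without the 4 HIRA KO libraries that stood apart (1.03 ± 0.326, edgeR adjusted p = 0.0601). HIRA KO and control differed by 0.22 ± 0.290 before and -0.16 ± 0.288 after regeneration (edgeR adjusted p = 0.799 and 0.844), with 95% intervals of -0.35 to 0.79 and -0.72 to 0.41. Without those 4 libraries, these differences were 0.17 ± 0.397 and 0.18 ± 0.389. The sign after regeneration changed, but with and without them that difference was smaller than its SE. The difference with regeneration in HIRA KO was then 1.04 ± 0.461 (edgeR adjusted p = 0.195).

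H2afv was more even. It ranged from 19.5 to 22.8 CPM in control before, from 18.0 to 22.9 in HIRA KO before and from 19.4 to 24.7 in control after. In HIRA KO after, its libraries had 16.2, 29.0, 26.7 and 27.9 CPM, so that library 1 was the lowest and the other 3 the highest of all 16. The difference with regeneration was 0.07 ± 0.147 in control and 0.32 ± 0.147 in HIRA KO, and neither was called (edgeR adjusted p = 0.835 and 0.168). Without HIRA KO after library 1 the latter became 0.50 and was called (edgeR adjusted p = 0.00867), as it was without the 4 HIRA KO libraries (0.50 ± 0.135, edgeR adjusted p = 0.0288). Per kb of annotated exon, H2afz made up 61.3% ± 3.10 of the H2A.Z pair in control before, 66.4% ± 1.06 in HIRA KO before, 73.5% ± 8.36 in control after and 70.2% ± 7.53 in HIRA KO after. By the deposited FPKM (fragments scaled by length and library size) the share was higher. It was 75.6% ± 2.97, 82.5% ± 3.87, 85.8% ± 5.25 and 82.3% ± 6.06 in the same order of groups.

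Of the 20 genes for the exchange of H2A.Z, 0 were called between HIRA KO and control before regeneration, beside 0.0391% of all genes. After it Ep400, the motor of the TIP60/p400 complex, was lower in HIRA KO, with 31.3 ± 2.84 CPM against 43.2 ± 3.83 (log2 -0.47 ± 0.0982, edgeR adjusted p = 0.0443). That call ends when only the 2 groups after regeneration are fitted, where edgeR called 0 genes in all and 3046 had an unadjusted p under 0.05. In HIRA KO liver Ep400 and Srcap, the motor of the SRCAP complex, fell with regeneration by 0.44 ± 0.0983 and 0.73 ± 0.223 on the log2 scale (edgeR adjusted p = 0.00778 and 0.0419). In control liver 1 of the 20 was called, Brd8, a subunit of TIP60/p400, which rose by 0.50 ± 0.154 (edgeR adjusted p = 0.0468). These are 5% of the list in control and 10% in HIRA KO, below the 10.2% and 12% of all genes called. The median of the list was 0.02 in control and 0.01 in HIRA KO, near the medians of all genes tested of 0.00291 and 0.0194. The median between HIRA KO and control was -0.04 before and -0.14 after regeneration, against 0.00936 and 0.0219 over all genes.

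H2afx, on the plus strand at chr9:44334694-44336077, encodes H2A.X, whose phosphorylated form gathers repair proteins at DNA breaks. Its CPM was 7.61, 9.63, 13.8 and 9.88 in control before and 13.8, 19.3, 28.8 and 25.0 in control after. Only control after library 1 reached down to the controls before, and the increase was 1.09 ± 0.219 (log2, SE; edgeR adjusted p = 0.00458), or 2.12-fold in mean CPM. This call held in all 16 fits that left out 1 library. In HIRA KO the values were 9.15, 11.1, 11.8 and 8.58 CPM before and 15.4, 11.2, 18.4 and 14.9 after. Library 2 after regeneration overlapped those before it, and the difference of 0.56 ± 0.219 was not called (edgeR adjusted p = 0.104). After regeneration H2afx had 15.0 ± 2.92 CPM in HIRA KO and 21.7 ± 6.58 in control, a difference of -0.54 ± 0.215 (95% interval -0.96 to -0.12) that was not called (edgeR adjusted p = 0.228). Before regeneration the difference was -0.01 ± 0.221. Without HIRA KO libraries 1 and 2 the difference after regeneration was -0.37 ± 0.287 and the one with regeneration in HIRA KO 0.73 ± 0.338 (log2, SE), and neither was called (edgeR adjusted p = 0.709 and 0.201). The change of the HIRA KO effect between times, -0.53 ± 0.308, was not called either (edgeR adjusted p = 0.777), so the rise was not shown to differ between control and HIRA KO.

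Of the 15 genes for signalling from phosphorylated H2A.X and for the repair that follows, 4 rose with regeneration in control (26.7%, beside 10.2% of all genes called) and 3 in HIRA KO (20%, beside 12%), and 0 fell. Among the 4 were Bard1, the partner of BRCA1, and the checkpoint kinases Chek1 and Chek2. In control these rose by 3.39 ± 0.555, 2.04 ± 0.418 and 1.02 ± 0.281 on the log2 scale (edgeR adjusted p = 0.00122, 0.00488 and 0.0261). In HIRA KO Bard1 and Chek1 rose by 2.69 ± 0.558 and 1.26 ± 0.396 (edgeR adjusted p = 0.00498 and 0.0453). The other 11 genes of the list, among them Atm, Atr and Mdc1, were called in neither. Between HIRA KO and control 0 of the 15 were called, beside 0.0391% of all genes before and 0.491% after regeneration. The list medians were 0.34 in control and 0.33 in HIRA KO.

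H2afy and H2afy2 encode macroH2A proteins, which carry a large macro domain behind the histone fold. H2afy, on the minus strand at chr13:56073619-56136361, was the steadiest of the 9. Its 16 libraries lay between 72.0 and 87.9 CPM, with group means of 77.9 ± 3.85 in control before, 75.2 ± 3.37 in HIRA KO before, 79.1 ± 6.29 in control after and 76.2 ± 5.33 in HIRA KO after. All groups overlapped, and the 4 differences lay between -0.05 and 0.02 with SEs near 0.0912 (log2). Their 95% intervals together reached from -0.23 to 0.20 (log2). H2afy2, on the minus strand at chr10:61738665-61784147, had 6 to 39 reads a library. Its means were 0.846 ± 0.402, 0.780 ± 0.301, 0.791 ± 0.248 and 1.23 ± 0.435 CPM in the same order of groups. HIRA KO after libraries 1 and 2 were the highest of all 16, with 1.77 and 1.38 CPM, and the difference from control after of 0.63 ± 0.388 was not called (edgeR adjusted p = 0.453). Without HIRA KO libraries 1 and 2 at both times it was 0.18 ± 0.435 (log2, SE). H2afy made up at least 92.9% of the pair per kb of exon in each library.

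H2afj, on the plus strand at chr6:136808244-136810074, encodes H2A.J, which differs from replication-type H2A mainly at its C-terminus and is known to build up in senescent cells. It had 19.2, 25.7, 19.0 and 26.2 CPM in control before and 18.5, 17.5, 14.6 and 16.5 in control after. No library after regeneration reached those before it, but the difference of -0.43 ± 0.150 was not called (edgeR adjusted p = 0.0800). In HIRA KO it had 26.6, 17.7, 20.8 and 21.9 CPM before and 25.8, 25.7, 22.1 and 18.1 after, a difference of 0.08 ± 0.148. The 4 control after libraries were mostly below the HIRA KO after libraries, with overlap only between control library 1 and HIRA KO library 4. That difference was 0.45 ± 0.149 (95% interval 0.16 to 0.75) and was not called (edgeR adjusted p = 0.149). The change of the HIRA KO effect between times was 0.50 ± 0.211, with an unadjusted edgeR p of 0.0282 and an adjusted p of 0.665. Without the 4 HIRA KO libraries that stood apart, the difference after regeneration was 0.28 ± 0.153 (log2, SE; edgeR adjusted p = 0.524), and the one in control was called (edgeR adjusted p = 0.0276).

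H1f0, on the plus strand at chr15:79028450-79030504, encodes H1.0, the linker histone that accumulates in cells that have left the cell cycle. It had the most reads of the 9, with 142, 129, 139 and 142 CPM in control before and 134.5, 109, 97.8 and 111 in control after. The difference of -0.29 ± 0.165 was not called (edgeR adjusted p = 0.318), and control after library 1 lay among the controls before. In HIRA KO it had 105, 94.4, 142 and 130.2 CPM before and 155, 154.5, 107 and 95.05 after. HIRA KO libraries 1 and 2 were thus the lowest of their group before and the highest after regeneration. The difference with regeneration in HIRA KO was 0.12 ± 0.165 with all libraries and -0.41 ± 0.146 without HIRA KO libraries 1 and 2 (edgeR adjusted p = 0.706 and 0.0865). Differences between HIRA KO and control were -0.23 ± 0.165 before and 0.18 ± 0.165 after (log2, SE), with 95% intervals of -0.55 to 0.10 and -0.14 to 0.50, and were -0.02 ± 0.127 and -0.14 ± 0.127 without those libraries.

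H1fx, on the minus strand at chr6:87980421-87981637, encodes H1X, a divergent linker histone. In control before, its libraries held 3, 9, 7 and 0 reads. In HIRA KO before they held 87, 29, 3 and 1, or 4.60, 1.93, 0.204 and 0.0626 CPM, so that libraries 1 and 2 alone were above the controls. After regeneration control had 0.877, 3.04, 3.54 and 3.26 CPM and HIRA KO 15.2, 13.8, 6.40 and 2.56. No control library before regeneration reached those after it, with 200 reads in total against 19. The fitted difference was 3.34 ± 1.10 (log2, SE) and was not called (edgeR adjusted p = 0.0734). In HIRA KO, where libraries overlapped, it was 2.45 ± 0.888 (edgeR adjusted p = 0.0929). HIRA KO exceeded control by 2.71 ± 1.12 before and 1.82 ± 0.854 after (edgeR adjusted p = 0.336 and 0.323), and the groups overlapped at both times. Without HIRA KO libraries 1 and 2 these became -0.95 ± 1.29 and 0.76 ± 0.581. The difference with regeneration in HIRA KO became 5.05 ± 1.04 and was called (edgeR adjusted p = 0.0125). It then rested on libraries 3 and 4 at each time, with only 3 and 1 reads before regeneration. HIRA KO libraries 1 and 2 were also the ones with high stellate cell and cholangiocyte marker sums before regeneration. After it HIRA KO library 1 had the highest sum of each list, 439 and 135 CPM. HIRA KO library 2, at 346 and 109 CPM, then lay among the other libraries. The part of stellate cells and cholangiocytes in the H1fx values was not tested. The H1fx increase in control was called in 4 of the 8 alternative settings, among them DESeq2 (adjusted p = 0.0132).

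Of the 5 replication-type linker histone genes, Hist1h1a to Hist1h1e, 0 were called in any comparison. Their mRNAs mostly lack a poly(A) tail and so are largely missed by poly(A) selection. List medians for regeneration were 0.67 in control and 2.01 in HIRA KO, but they rest partly on few reads. Hist1h1a had at most 14 reads in a group, and Hist1h1b had 18 in HIRA KO after and 0 in the other groups. Of the 142 Hist1h1e reads in HIRA KO after, 96 were in 1 library. Hist1h1c was counted at 70.4 ± 31.2 CPM in control before, 83.5 ± 11.9 in HIRA KO before, 73.4 ± 18.0 in control after and 122 ± 77.4 in HIRA KO after. Of 7 chaperones of H2A-H2B and H1, among them Nap1l1, Nasp and the FACT subunits Supt16 and Ssrp1, 0 were called in any comparison. Of all genes tested, 0.0391% before and 0.491% after regeneration were called between HIRA KO and control. With regeneration 10.2% were called in control and 12% in HIRA KO, so 0 calls in lists of 5 and 7 genes say little.

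Cenpa, on the plus strand at chr5:30666777-30674830, had the largest called increase of the 9. In control it had 4.67, 4.46, 4.69 and 3.20 CPM before and 10.4, 20.3, 42.9 and 31.7 after regeneration. The 2 groups did not overlap, and the increase was 2.63 ± 0.505 (log2, SE; edgeR adjusted p = 0.00545), or 6.18-fold in mean CPM. In HIRA KO it had 7.09, 7.47, 3.94 and 3.88 CPM before and 10.1, 12.2, 38.6 and 12.3 after. Again no library overlapped, and the increase was 1.71 ± 0.491 (edgeR adjusted p = 0.0392), or 3.27-fold in mean CPM, with library 3 far above the other 3. The call in control held in all 16 fits that left out 1 library. The call in HIRA KO was lost without control before library 1 or 3, any HIRA KO before library, or HIRA KO after library 3, where the increase was 1.05 (edgeR adjusted p = 0.110). Without the 4 HIRA KO libraries that stood apart it was 2.73 ± 0.734 (edgeR adjusted p = 0.0503). HIRA KO and control differed by 0.40 ± 0.505 before and -0.53 ± 0.463 after regeneration, and by -0.12 ± 0.670 and -0.02 ± 0.560 without the 4 libraries. The change between times of -0.92 ± 0.686 was not called (edgeR adjusted p = 0.831), with a 95% interval of -2.27 to 0.42, and was 0.10 ± 0.871 without them. The smallest p of an exact two-sided permutation test of 4 against 4 libraries, 0.0286, was reached by Cenpa in both genotypes, by H2afj and H1fx in control and by H2afz in HIRA KO. After adjustment over the 36 such tests, 0 were below 0.05, the smallest being 0.187.

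**Figure D3:**
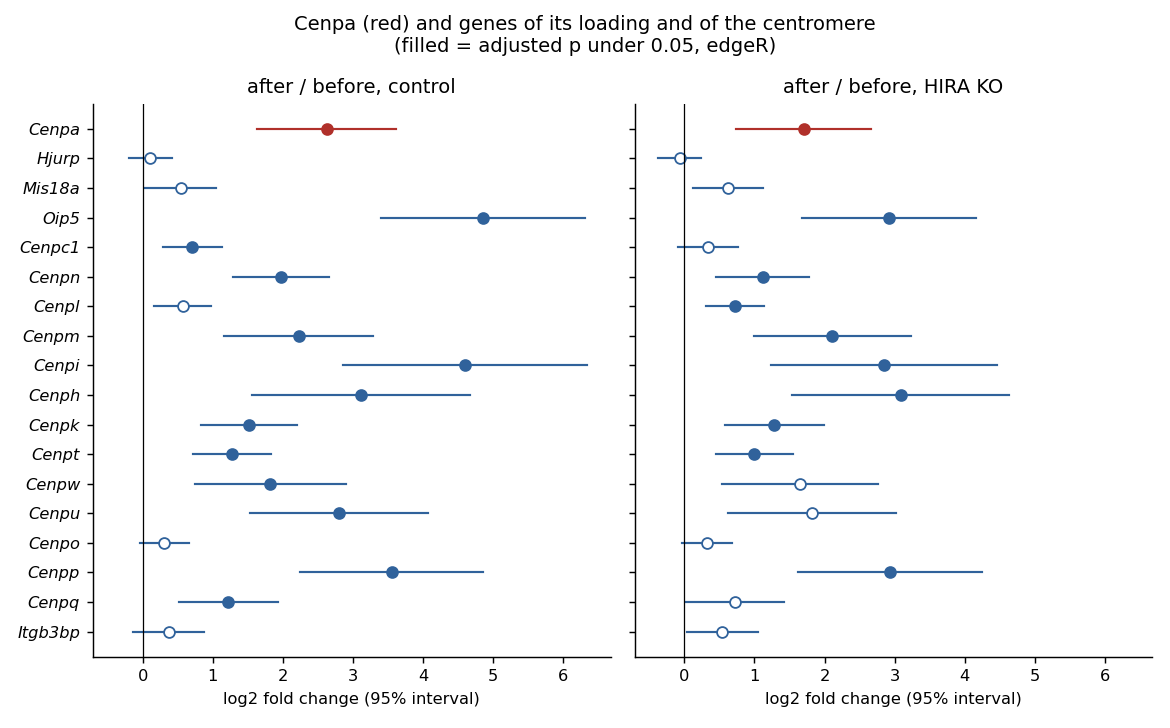
Log2 fold change with regeneration (x axis, with 95% intervals) of Cenpa, in red, and of 17 of the 18 genes of CENP-A loading and the centromere, in blue, in control (left) and HIRA KO (right); filled points passed an edgeR adjusted p of 0.05. In control 12 of the 17 are filled and in HIRA KO 9, all to the right of 0. Of all genes tested, 10.2% were called in control and 12% in HIRA KO.

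CENP-A is placed by HJURP after the MIS18 complex has licensed the centromere, and a network of further proteins binds it throughout the cell cycle. Of 18 such genes, 13 rose with regeneration in control (72.2%, beside 10.2% of all genes called) and 10 in HIRA KO (55.6%, beside 12%). In either, 0 fell, and the medians were 1.67 and 1.2 (log2). Oip5, a subunit of that complex, rose by 4.85 ± 0.743 in control and 2.92 ± 0.634 in HIRA KO (edgeR adjusted p = 0.000940 and 0.00774). Cenpn, which reads the CENP-A nucleosome, rose by 1.97 ± 0.348 in control and 1.12 ± 0.336 in HIRA KO (edgeR adjusted p = 0.00188 and 0.0383). Hjurp was counted at 145 ± 23.3 CPM in control before and 156 ± 30.4 in control after, and was not called. Between HIRA KO and control 0 of the 18 were called, beside 0.0391% of all genes before and 0.491% after regeneration. The list medians were 0.06 before and -0.23 after. The regeneration comparisons in control and in HIRA KO have no library in common. Both come from the same fit, with shared scaling and spread, so these counts are not independent.

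The start regions of the variants were read for elements known from cell cycle promoters. RefSeq windows of 250 bases before to 50 bases after the start site (GRCm38.p6) were given for 8 of the 9 genes, all but H2afx. Those of Cenpa, H2afz and H2afv are shown because Cenpa and H2afz rose in control while H2afv, the partner of H2afz, was not called. Each reads 5′ to 3′ along the gene, at chr5:30666636-30666935 (plus strand), chr3:137864237-137864536 (plus strand) and chr11:6444394-6444693 (minus strand). Capitals mark CCAAT or its reverse complement ATTGG, the box bound by NF-Y, and TTTGAA or its reverse complement TTCAAA, the cell cycle homology element.
Cenpa: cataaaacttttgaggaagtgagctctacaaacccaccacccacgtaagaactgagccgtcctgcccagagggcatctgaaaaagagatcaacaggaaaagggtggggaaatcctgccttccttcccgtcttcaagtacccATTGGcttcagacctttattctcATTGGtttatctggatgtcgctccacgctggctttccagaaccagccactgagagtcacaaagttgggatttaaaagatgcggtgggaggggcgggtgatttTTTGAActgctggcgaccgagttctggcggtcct
H2afz: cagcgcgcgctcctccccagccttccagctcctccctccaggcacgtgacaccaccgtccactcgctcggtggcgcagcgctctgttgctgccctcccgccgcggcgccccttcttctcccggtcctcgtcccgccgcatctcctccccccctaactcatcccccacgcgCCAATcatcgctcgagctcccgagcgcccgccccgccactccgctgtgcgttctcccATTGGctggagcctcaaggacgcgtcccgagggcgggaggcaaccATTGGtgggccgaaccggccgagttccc
H2afv: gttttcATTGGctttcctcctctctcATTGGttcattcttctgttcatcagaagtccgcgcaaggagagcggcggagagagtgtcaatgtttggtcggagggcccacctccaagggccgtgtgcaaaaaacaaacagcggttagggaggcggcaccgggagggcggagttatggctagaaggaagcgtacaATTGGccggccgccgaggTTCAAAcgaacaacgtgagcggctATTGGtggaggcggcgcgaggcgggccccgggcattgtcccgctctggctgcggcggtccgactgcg
CCAAT was present on either strand in 37.4% of 32851 RefSeq windows of this length and TTTGAA in 17.9%. Cenpa held 2 CCAAT boxes, 109 and 86 bases before the start, and 1 TTTGAA 16 bases after it. H2afz held 3 CCAAT boxes and no TTTGAA. H2afv held 4 CCAAT boxes and 1 TTTGAA, so this pair of elements was also present in a gene that was not called. H2afj held 3 CCAAT boxes and H2afy2 1, while the windows of H2afy, H1f0 and H1fx held neither motif. The H1f0 window (chr15:79027962-79028261) ends before the annotated gene begins at 79028450, so the sequence at that start was not read. The E2F-type motif TTTNNCGC, in 5.17% of windows, and AAACACA, the box of replication-type H1 promoters, in 7.18%, were in none of the 8. No overlap was found between a CCAAT and a TTTGAA match. These are letters in a window and were not tested as binding sites.

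How far each variant moved with cell division was then described library by library. The mean log2(CPM + 1) of 18 cell division genes, such as Mki67, Top2a and Mcm2, lay between 1.46 and 1.92 in control before, 1.60 and 2.29 in HIRA KO before, 2.82 and 4.85 in control after, and 3.14 and 4.74 in HIRA KO after. Of the 18, 17 rose with regeneration in each genotype, beside 10.2% of all genes called in control and 12% in HIRA KO. The medians of the list were 4.14 in control and 2.77 in HIRA KO (log2). Control after library 1 was the lowest of its group for the division list and also for Cenpa, H2afz and H2afx. HIRA KO after library 3 was the highest of its group for the list and for the same 3 genes. Over all 16 libraries Pearson's r with the list was 0.987 for Cenpa (Spearman's rho 0.974), 0.924 for H2afz (0.844) and 0.891 for H2afx (0.8294). Since the groups themselves differ, group means were removed, and r was then 0.967 for Cenpa, 0.930 for H2afz and 0.734 for H2afx. Without the 2 libraries farthest from the median of the list, the last values were 0.941, 0.855 and 0.577. H1f0 had an r of -0.651 on the same scale, and -0.587 without those 2 libraries. H2afy had -0.158, H2afv 0.294 and H1fx 0.314. The 2 values compared come from 1 library each time and share its scaling, and these figures are descriptions without a test.

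**Figure D4:**
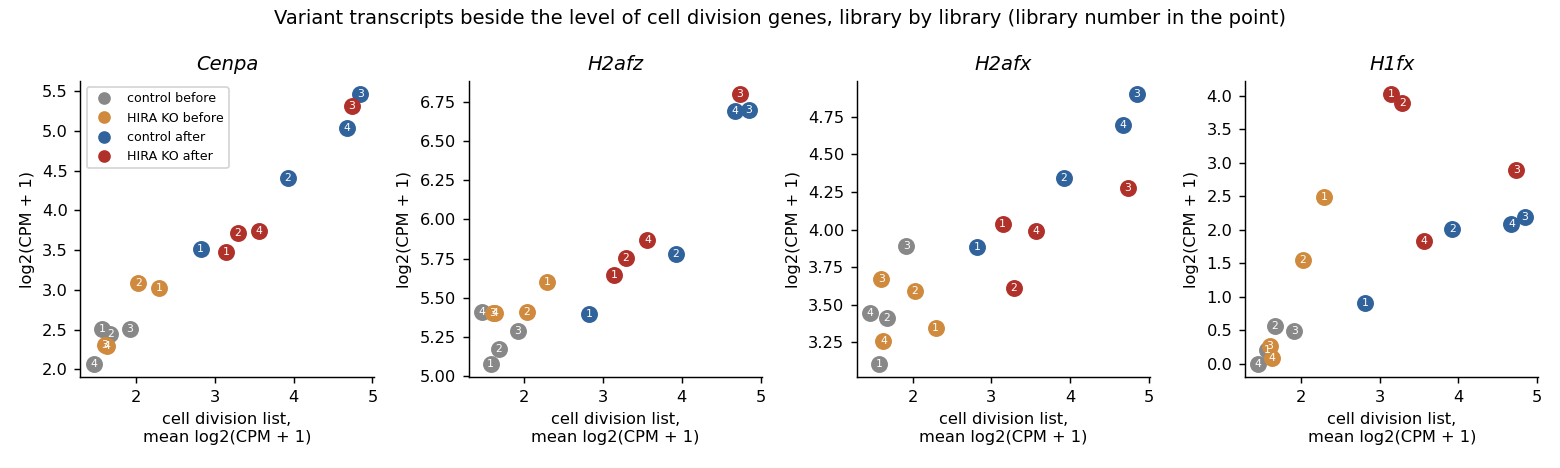
Log2(CPM + 1) of Cenpa, H2afz, H2afx and H1fx (y axis) against the mean log2(CPM + 1) of 18 cell division genes (x axis), 1 point a library with its number, coloured by group. Cenpa follows the division list over all groups, whereas HIRA KO after libraries 1 and 2 have the highest H1fx at middle values of the list.

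Markers of other cells also moved with regeneration. With regeneration 10.2% of all genes tested were called in control and 12% in HIRA KO. All 8 Kupffer cell and macrophage markers rose in both genotypes, with medians of 1.15 in control and 1.58 in HIRA KO, and none was at 0. Their summed level was 152 to 407 CPM in control before, 207 to 240 in HIRA KO before, 739 to 939 in control after and 719 to 1111 in HIRA KO after. Of 8 hepatocyte markers Tat fell in both genotypes and Ttr in HIRA KO. Of the 6 endothelial markers Kdr fell and Cdh5 rose in both. One cholangiocyte marker, Spp1, and 1 B cell marker, Ms4a1, rose in control, and no marker of stellate cells or of T and NK cells was called. The part of these cells in the increases of Cenpa, H2afz and H2afx was not tested.

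Levels can be set between genes only per length. By the deposited FPKM (fragments scaled by length and library size), the order in control before was H1f0 at 59.1 ± 2.36, H2afz at 57.2 ± 6.48, H2afy at 43.9 ± 3.06, H2afj at 25.8 ± 3.18, H2afv at 18.3 ± 1.16, H2afx at 6.97 ± 1.56, Cenpa at 2.67 ± 0.541, H2afy2 at 0.324 ± 0.186 and H1fx at 0.238 ± 0.0969. The ranges of H1f0 and H2afz overlapped, as did those of H2afy2 and H1fx, and no other neighbours did. In control after, H2afz came first with 136 ± 66.9 FPKM and Cenpa, at 18.7 ± 10.5, was sixth. The lowest H2afz library there, at 63.5, was still above the highest of H1f0, at 57.7. Counts per kb of all annotated exons gave another order, since genes with many alternative exons are divided by a longer length. In control before H1f0 then came first at 67.1 ± 2.94 CPM per kb, followed by H2afz at 20.7 ± 2.11, H2afv at 13.1 ± 0.846, H2afj at 12.3 ± 2.14 and H2afy at 11.4 ± 0.565. On this scale H1f0 was first and H2afz second in all 4 groups.

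**Figure D5:**
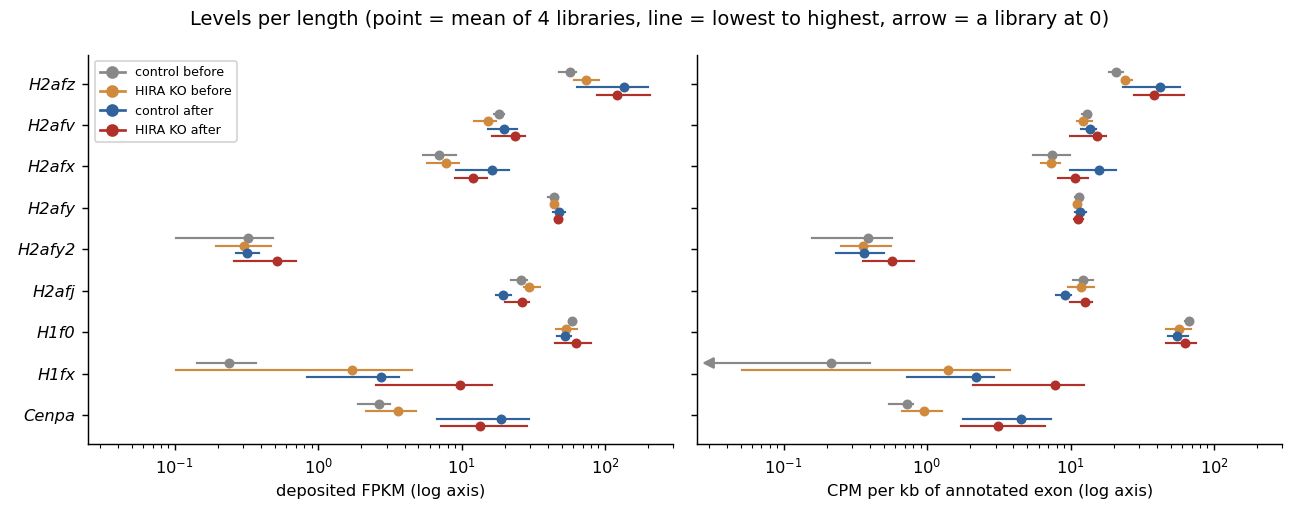
Level per length of each variant gene (rows) in the 4 groups, as deposited FPKM (left) and as CPM per kb of annotated exon (right), on log axes; points are means of 4 libraries and lines run from the lowest to the highest library. H1f0 and H2afz lead on both scales, and H1fx and H2afy2 are lowest in control before, with 1 H1fx library at 0 reads.

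The genes most like each variant over the 16 libraries were named by Pearson's r of log2(CPM + 1) among 13175 genes. For Cenpa these were Ccna2, Neurl1b and Tacc3 (0.992, 0.990 and 0.989), for H2afz Tuba1b, Aurka and Sae1 (0.973, 0.964 and 0.961), and for H2afx Pkn3, Slc16a1 and Stil (0.963, 0.945 and 0.938). For H1fx they were Usp43, Arhgdia and Rhoc (0.965, 0.964 and 0.956). The nearest genes to 3 other variants were Alkbh7 for H2afj (0.856), Phykpl for H1f0 (0.856) and Vav2 for H2afy (0.8293). H2afy2 was below a mean of 1 CPM and was not compared. Among the 9 themselves, Cenpa had an r of 0.923 with H2afz and 0.877 with H2afx, and H2afz one of 0.836 with H2afx.

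Reads of some variants may be shared with other genes. Of the 50-base stretches of H2afz transcripts, 35.4% also occurred in other annotated genes (Tmcc1, Gm8203, Gm26623 and Gm13007), so its level is uncertain to that extent. The share was 15.4% for H2afy2, 14% for H1fx, 9.66% for H2afx, 7% for H2afj, 5.94% for H2afy, 5.68% for H1f0, 1.54% for Cenpa and 0% for H2afv. Exons of H2afx, H2afy, H2afy2, H2afj, H1f0 and H1fx overlap a gene of the opposite strand, and H1fx also Gm47286 on its own strand. The library kit keeps strand, but the sources used here do not state whether counting did.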

How the data were processed

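Poly(A) RNA had been sequenced from 16 liver libraries. The authors aligned the reads to mm10 with STAR. Their methods name HOMER for gene counts, while the submitters' notes list HTSeq and Cufflinks, so the tool behind each table is not settled. The deposited counts were whole reads per gene. The deposited FPKM were scaled by length and library size, and H1fx had an FPKM in a library with 0 counts, so they were not the counts divided by a length. Between 15103059 and 21738619 counts per library set the precision, and intervals cover the spread between libraries. The 24 pairs of replicates differed by 12.4 to 134 chi-square units per degree of freedom, so none was 1 library deposited again.

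Genes with at least 10 counts in total (23018) were fitted with edgeR 4.0.16 (R 4.3.3), TMM factors and 4 group means. Its quasi-likelihood test was run with robust estimation, and p-values were adjusted over all 23018 genes after Benjamini and Hochberg. This was tested on simulated data. Alternatives were DESeq2 1.42.0, limma 3.58.1 on log2(FPKM + 1), other scaling and filters, leaving out each library, and, chosen after seeing the data, leaving out 4 HIRA KO libraries. CPM used TMM-scaled sizes. SEs of fold changes are approximate. Exact permutation tests used log2(CPM + 1). Coordinates and exon lengths are from GENCODE M21, and promoters from RefSeq. The 9 genes are always named, and list genes by the smallest adjusted p, at most 4 a list. The genes and lists were chosen with earlier results of these data known. Some genes of these lists are counted but not reported by name here.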

Additional observations from a re-analysis of the deposited data

Results flagged for a closer look

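Within groups of 4, a library was set apart where its gap to the nearest other as a share of the range of the group exceeded the 95% critical value of Dixon's test, which chance gives for about 1 in 20 groups. Of the 36 groups of CPM values checked, 4 were so marked. H2afz in HIRA KO before library 1 was 47.47 CPM, against 41.41 in the nearest. H2afz in HIRA KO after library 3 was 110.3 CPM, against 57.49. Cenpa in control before library 4 was 3.196 CPM, below the nearest at 4.465. Cenpa in HIRA KO after library 3 was 38.6 CPM, against 12.35, and the same library was the highest of its group for the cell division list.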

How the results depend on the processing

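No paired analysis was possible because the columns carry a number that is in no label, so neither mouse nor deletion approach could be matched. Between HIRA KO and control, no variant gene was called under any alternative at either time. H2afx and Cenpa in control were called in all 8 alternative settings, H2afz in 5 and Cenpa in HIRA KO in 6. Of the results not called in the main fit, H1fx in control was called in 4. H2afj in control, and H2afv and H1fx in HIRA KO, were called in 1 each. Genes called between HIRA KO and control before regeneration numbered 9, against 375 by DESeq2, 36 with at least 1 count in total, 4 by limma on FPKM, 5 without the 4 HIRA KO libraries and 1 to 33 when 1 library was left out. After regeneration they numbered 113 (46 higher, 67 lower), against 910 by DESeq2, 52 with upper-quartile factors (41 higher, 11 lower), 85 with RLE factors (44 higher, 41 lower), 228 with filterByExpr, 0 with only the groups compared (3046 at an unadjusted p under 0.05), 64 by limma, 15 without the 4 libraries and 5 to 452 when 1 was left out. With regeneration in control 2350 became 3858 without the 4 libraries and 1530 to 2634 when 1 was left out, and in HIRA KO 2764 became 1431 with only the groups compared and 1678 to 2771 when 1 was left out. For the difference between times, 0 (1568 at an unadjusted p under 0.05) became 67 by DESeq2, 1 with at least 1 count in total and 0 to 7 when 1 was left out. By limma H2afj turned to 0.18 (HIRA KO against control before) and -0.16 (regeneration in HIRA KO). Without the 4 libraries H1fx before turned to -0.95, H1f0 after to -0.14, H1f0 with regeneration in HIRA KO to -0.41, and the difference between times to -0.12 for H1f0, 1.72 for H1fx and 0.10 for Cenpa. These causes were not tested. In the main fit H1fx, with few reads, had the widest SEs in every comparison, followed by Cenpa and then H2afy2.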
